A study of Mus musculus with 26 samples.

Results

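The transcripts described here are those of 10 genes whose products carry bile acids and other organic anions across the membranes of the liver cell. They were taken by symbol as a fixed list: the uptake carriers Slc10a1, Slco1a1, Slco1a4, Slco1b2 and Slco2b1, the bile canalicular exporters Abcb11, Abcb4 and Abcc2, and the exporters of the blood-facing membrane Abcc3 and Abcc4. These are 10 of the 55401 genes in the count table, and all 10 were among the 16238 genes with enough reads to be tested. The RNA came from livers of male C57BL/6 mice, called MASLD mice in the labels, all of which were fed a high-fat diet for 18 weeks from 4 weeks of age; the series design also names high cholesterol. The comparison was between mice left untreated on the diet (untreated HFD, 9 libraries) and mice on the same diet injected into the tail vein with exosomes of UCMSCs, as the labels abbreviate the source cells, every 72 hours for 8 weeks (UCMSC-Exos, 8 libraries, numbered 1 to 3 and 5 to 9). Exosomes are small vesicles that cells release. The labels list no injection for the untreated group, so an effect of the exosomes cannot be told apart from that of repeated injection or of a shared cage or cohort. Both groups carry the diet, and no lean group enters the comparison. A group of 9 LSCR samples was not analysed here. The labels plan 9 mice per group and number the libraries as replicates without naming an animal for each, so p-values measure the spread between these libraries.

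Hepatocytes take bile salts and many drugs and hormone conjugates from the blood through the basolateral (sinusoidal) membrane and pass them into bile through the canalicular membrane. Slc10a1 (NTCP) takes up conjugated bile salts together with sodium, while the Slco carriers (OATPs) take up a broad range of organic anions without it. Abcb11 (BSEP) pumps bile salts into the canaliculus, Abcc2 (MRP2) pumps conjugated organic anions such as bilirubin glucuronide, and Abcb4 (MDR2) moves phosphatidylcholine, which protects the duct lining from bile salts. Abcc3 and Abcc4 (MRP3 and MRP4) return organic anions to the blood and are known to be induced in cholestasis. In mouse liver, Slco1a1 is known as a carrier of male-predominant expression and Slco1a4 as one of female-predominant expression.

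The libraries held 32.9 to 36.1 M counted reads each, and the members had between 159 (Slco1a1) and 45925 (Abcc2) reads in a library. Levels are given in CPM, the counts of a gene per M reads of the scaled library size. In bulk tissue, fewer cells of a type and less RNA per cell cannot be told apart. Of 12 hepatocyte markers 9 were higher in UCMSC-Exos and none lower, and their summed level ran from 42400 to 69000 CPM in untreated HFD and from 49300 to 90800 CPM in UCMSC-Exos. Markers of pancreas, intestine, muscle and fat summed to 96.7 to 171 CPM in 15 libraries but to 10900 CPM in untreated HFD 3, led by the pancreatic Ctrb1, and to 6030 CPM in untreated HFD 9, led by the muscle gene Acta1. UCMSC-Exos 9 lay at −49.6 on the first principal component, within the untreated range of −51.7 to −2.23 and away from the other treated libraries at 30.6 to 63.2. Its hepatocyte marker sum was 49300 CPM against 71300 to 90800 CPM in the other treated libraries, and its cholangiocyte (bile duct) marker sum was 684 against 73.6 to 159 CPM. Spp1 was the highest cholangiocyte marker in every library, at 500 CPM in UCMSC-Exos 9. The 13 mitochondrially encoded genes summed to 2950 CPM in untreated HFD 3 and 61400 CPM in untreated HFD 9, against 28200 to 38100 CPM in the other 7 untreated libraries, 41000 to 48600 CPM in the treated ones but UCMSC-Exos 9, and 26800 CPM there. The part of these differences in the results below was not tested, and some results are also given without some or all of these 3 libraries.

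In livers of the UCMSC-Exos group, 6 of the 10 transporter transcripts rose and none fell. The uptake carriers Slco1a1, Slc10a1 and Slco1b2 rose 10.9-fold, 2.17-fold and 1.38-fold. The 3 canalicular exporters Abcc2, Abcb11 and Abcb4 rose 1.32-fold, 1.27-fold and 1.19-fold. Slco1a4, Slco2b1, Abcc3 and Abcc4 did not pass the test. A gene passed at a Benjamini-Hochberg adjusted p of 0.05 in edgeR's quasi-likelihood test, and 20.2% of all tested genes did so, 9.73% as higher and 10.4% as lower. The median log2 fold change was 0.30 over the 10 members, 0.60 over the 12 hepatocyte markers and −0.02 over all tested genes. For none of the 10 members did the 2 groups separate completely, which they did for 1.3% of all tested genes.

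**Figure D1:**
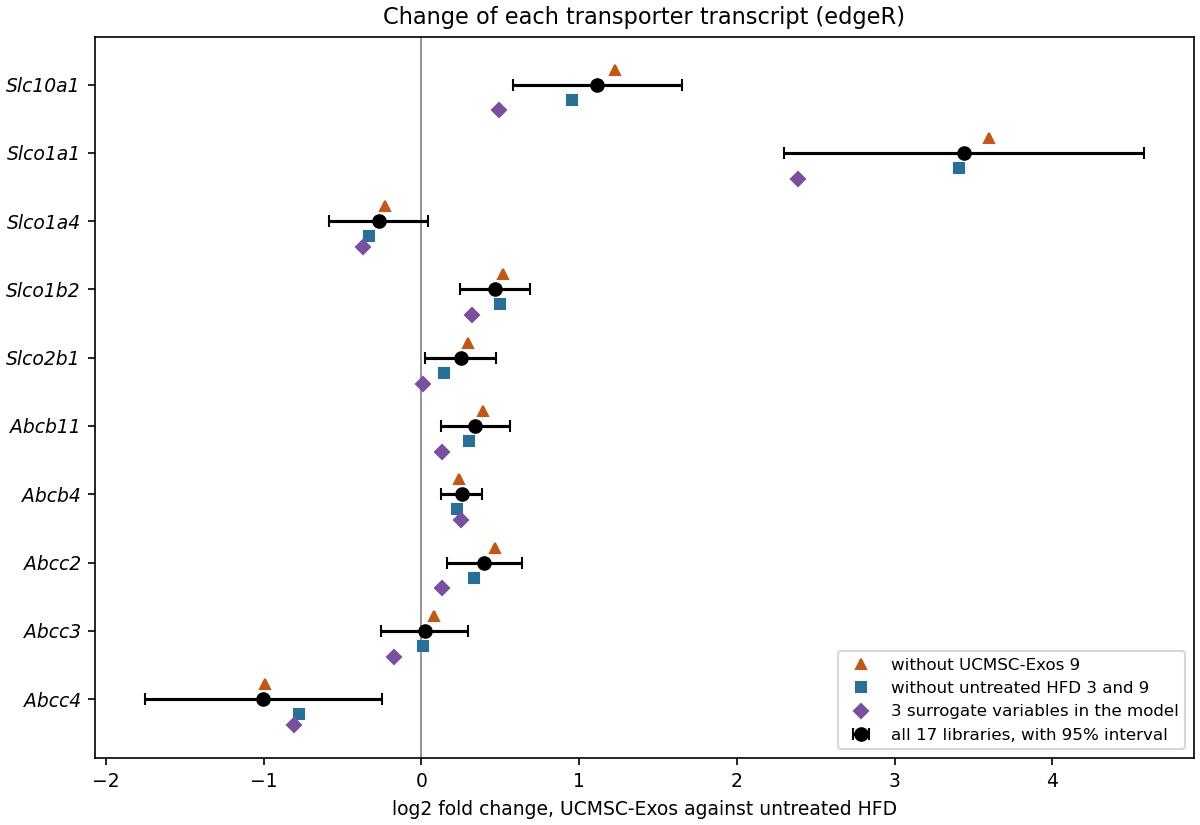
Log2 fold change of each of the 10 transporter transcripts, UCMSC-Exos against untreated HFD, on the horizontal axis, with genes as rows. Black circles with bars show the estimate and its 95% interval from all 17 libraries, triangles the estimate without UCMSC-Exos 9, squares that without untreated HFD 3 and 9, and diamonds that with 3 surrogate variables in the model. Slco1a1 lies farthest to the right at 3.44, and the canalicular exporters sit between 0.26 and 0.40. The intervals of Abcc3 and Slco1a4 span 0. Intervals are not adjusted for multiple testing, and those of Slco2b1 and Abcc4 exclude 0 although neither gene passed.

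Leaving out single libraries, or the 3 libraries named above, moved the number of members called higher between 5 and 7. With 3 surrogate variables (unlabelled factors estimated from the counts) in the model, 4 members were called: Slco1a1 at a log2 fold change of 2.39 (edgeR adjusted p = 0.0189), Slc10a1 at 0.50 (0.0275), Slco1b2 at 0.32 (0.0168) and Abcb4 at 0.25 (0.00469). These calls depended on how the surrogate variables were estimated. Estimated on log2 CPM instead, a setting chosen after seeing the data, they left Abcb4 called at 0.26 (edgeR adjusted p = 0.0102), while Slco1a1 at 2.2, Slco1b2 at 0.30 and Slc10a1 at 0.41 did not pass (edgeR adjusted p = 0.0520, 0.0614 and 0.146).

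Upstream sequences are shown for the 3 Slco1 genes, which lie near each other on chromosome 6 and of which Slco1a1 and Slco1b2 rose while Slco1a4 did not pass, and for Slc10a1, the carrier with the next largest change after Slco1a1. Each is the 250 bases before the start site, 5′ to 3′ on the gene's strand, from RefSeq on GRCm38.p6. Slco1a1 is chr6:141946963-141947212 and Slco1a4 chr6:141856221-141856470, both on the minus strand, Slco1b2 is chr6:141629268-141629517 on the plus strand, and Slc10a1 is chr12:80968706-80968955 on the minus strand. Capitals mark matches to the motifs searched.
Slco1a1: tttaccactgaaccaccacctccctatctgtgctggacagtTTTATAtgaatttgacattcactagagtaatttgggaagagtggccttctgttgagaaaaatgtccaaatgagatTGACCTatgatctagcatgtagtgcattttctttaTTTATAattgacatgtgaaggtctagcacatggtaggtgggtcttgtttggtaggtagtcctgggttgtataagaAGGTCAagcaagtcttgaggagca
Slco1a4: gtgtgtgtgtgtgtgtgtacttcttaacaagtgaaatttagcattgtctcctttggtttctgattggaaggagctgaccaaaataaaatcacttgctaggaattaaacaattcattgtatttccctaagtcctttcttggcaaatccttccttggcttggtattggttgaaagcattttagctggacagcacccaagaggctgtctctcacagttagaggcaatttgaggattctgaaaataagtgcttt
Slco1b2: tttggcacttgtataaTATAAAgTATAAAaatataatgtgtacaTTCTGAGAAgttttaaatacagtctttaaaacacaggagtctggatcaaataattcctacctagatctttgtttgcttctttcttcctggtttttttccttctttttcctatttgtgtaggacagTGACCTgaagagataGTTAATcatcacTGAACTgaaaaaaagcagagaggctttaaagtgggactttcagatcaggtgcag
Slc10a1: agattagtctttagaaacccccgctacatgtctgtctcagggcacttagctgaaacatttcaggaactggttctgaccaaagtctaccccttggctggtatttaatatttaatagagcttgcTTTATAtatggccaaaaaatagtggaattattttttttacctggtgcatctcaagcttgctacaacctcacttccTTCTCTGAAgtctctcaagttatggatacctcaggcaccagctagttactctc

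Windows of 250 bases before to 50 after the start were found for 9 of the 10 members, all but Abcc3, and 8 motifs were searched on both strands. The Slco1a1 window held AGGTCA, the hexamer many nuclear receptors bind, at −24 and in reverse at −134, and TATAAA in reverse at −209 and −99. Slco1a4 held none of the 8 motifs. Slco1b2 held 7 matches, 1 of them past the printed bases, among them AGGTCA in reverse at −81, the STAT core TTCNNNGAA at −206, GTTAAT (part of the HNF1 site) at −66 and TATAAA at −234 and −227. In the Slc10a1 window the STAT core stood at −53 and TATAAA in reverse at −128. Of 32851 windows of the same length, 16.3% held AGGTCA, 8.3% the STAT core, 13.6% TATAAA and 7.1% GTTAAT. The other motifs were AGTTCA (14% of windows), TGACNNNGC of NRF2 elements (12.4%), and the IR-1 and DR-1 repeats of AGGTCA (0.00913% and 0.0396%); the repeats were in no member's window. Abcb11 held AGGTCA in reverse at −56 and AGTTCA in reverse at −87 and 16. Abcc2 held AGGTCA at −49 and TGACNNNGC at −98, and Abcb4 held AGTTCA in reverse at −211. Of the members that did not pass, Abcc4 held the STAT core at 2 and TGACNNNGC in reverse at −25. Slco2b1, like Slco1a4, held none of the 8 motifs. These are matches of letters, not binding sites.

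Slc10a1 (ENSMUSG00000021135.8, chromosome 12, 80953183 to 80968705 on mm10, minus strand), the main sodium-dependent bile salt carrier, had lowest, median and highest levels of 43.6, 159 and 236 CPM in untreated HFD and 142, 358 and 427 CPM in UCMSC-Exos. Libraries 1, 2, 3 and 5 of UCMSC-Exos sat together at 409 to 427 CPM, libraries 6, 7 and 8 at 252 to 308 CPM, and only library 9 fell inside the untreated range. The lowest untreated value belonged to untreated HFD 3. Means were 153.5 ± 51.3 in untreated HFD (SD, n = 9) and 332 ± 105 in UCMSC-Exos (SD, n = 8), with a log2 fold change of 1.11 ± 0.25 (SE; edgeR adjusted p = 0.00678; 95% interval 1.49-fold to 3.14-fold). Without untreated HFD 3 and 9 and UCMSC-Exos 9 the log2 fold change was 1.07 ± 0.15 (edgeR adjusted p = 5.21e-05).

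Slco1a1 (ENSMUSG00000041698.11, chromosome 6, 141907282 to 141946962, minus strand), an uptake carrier for steroid sulfates and other organic anions, had the largest change among the 10. Its lowest, median and highest levels were 4.5, 11.8 and 55.0 CPM in untreated HFD and 38, 227 and 345 CPM in UCMSC-Exos. Untreated libraries 1 to 5 lay at 4.5 to 11.8 CPM and libraries 6 to 9 at 26.3 to 55.0 CPM, so the untreated livers were far from uniform in this transcript. All treated libraries but UCMSC-Exos 9, at 38 CPM, lay above every untreated library. The untreated mean was 19.8 ± 16.8 CPM (SD, n = 9) and the treated mean 215 ± 98.9 (SD, n = 8), which gave a log2 fold change of 3.44 ± 0.54 (edgeR adjusted p = 0.000565; 95% interval 4.92-fold to 24-fold). It was 3.57 ± 0.55 (edgeR adjusted p = 0.000262) without the 3 libraries.

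Slco1b2 (ENSMUSG00000030236.10, chromosome 6, 141629518 to 141686646, plus strand), the mouse counterpart of the human liver carriers OATP1B1 and OATP1B3, ranged over 709, 765 and 989 CPM (lowest, median, highest) in untreated HFD and 843, 1218 and 1281 CPM in UCMSC-Exos. UCMSC-Exos 6 and 9, at 869 and 843 CPM, stood inside the untreated range and the other 6 treated libraries above it. The mean rose from 817 ± 98.7 to 1129 ± 178.5 CPM, a log2 fold change of 0.47 ± 0.11 with an edgeR adjusted p of 0.00603.

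Slco2b1 (ENSMUSG00000030737.17, chromosome 7, 99657804 to 99711340, minus strand), a carrier of sulfated steroids that many tissues express, had lowest, median and highest levels of 76.2, 126 and 145 CPM in untreated HFD and 109, 149 and 163 CPM in UCMSC-Exos. Treated libraries other than 9 lay in a narrow band of 143 to 163 CPM that met the top of the untreated range. The log2 fold change of 0.25 ± 0.11 did not pass (edgeR adjusted p = 0.103), while without UCMSC-Exos 9 it was 0.30 ± 0.10 and passed (edgeR adjusted p = 0.0270). With surrogate variables it was 0.0092 (edgeR adjusted p = 0.938). Its exons share 549 bases with models on the opposite strand, and without strand their reads cannot be told apart.

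Slco1a4 (ENSMUSG00000030237.14, chromosome 6, 141805440 to 141856199, minus strand), which also carries digoxin and is the neighbour of Slco1a1, ranged over 22.7, 27.9 and 36.6 CPM in untreated HFD and 16.5, 24.3 and 37.3 CPM in UCMSC-Exos. Of the 8 treated libraries 4 lay within the untreated range, 3 below its minimum and 1 above its maximum. Its log2 fold change was −0.27 ± 0.15 (edgeR adjusted p = 0.202; 95% interval 0.667-fold to 1.03-fold).

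**Figure D2:**
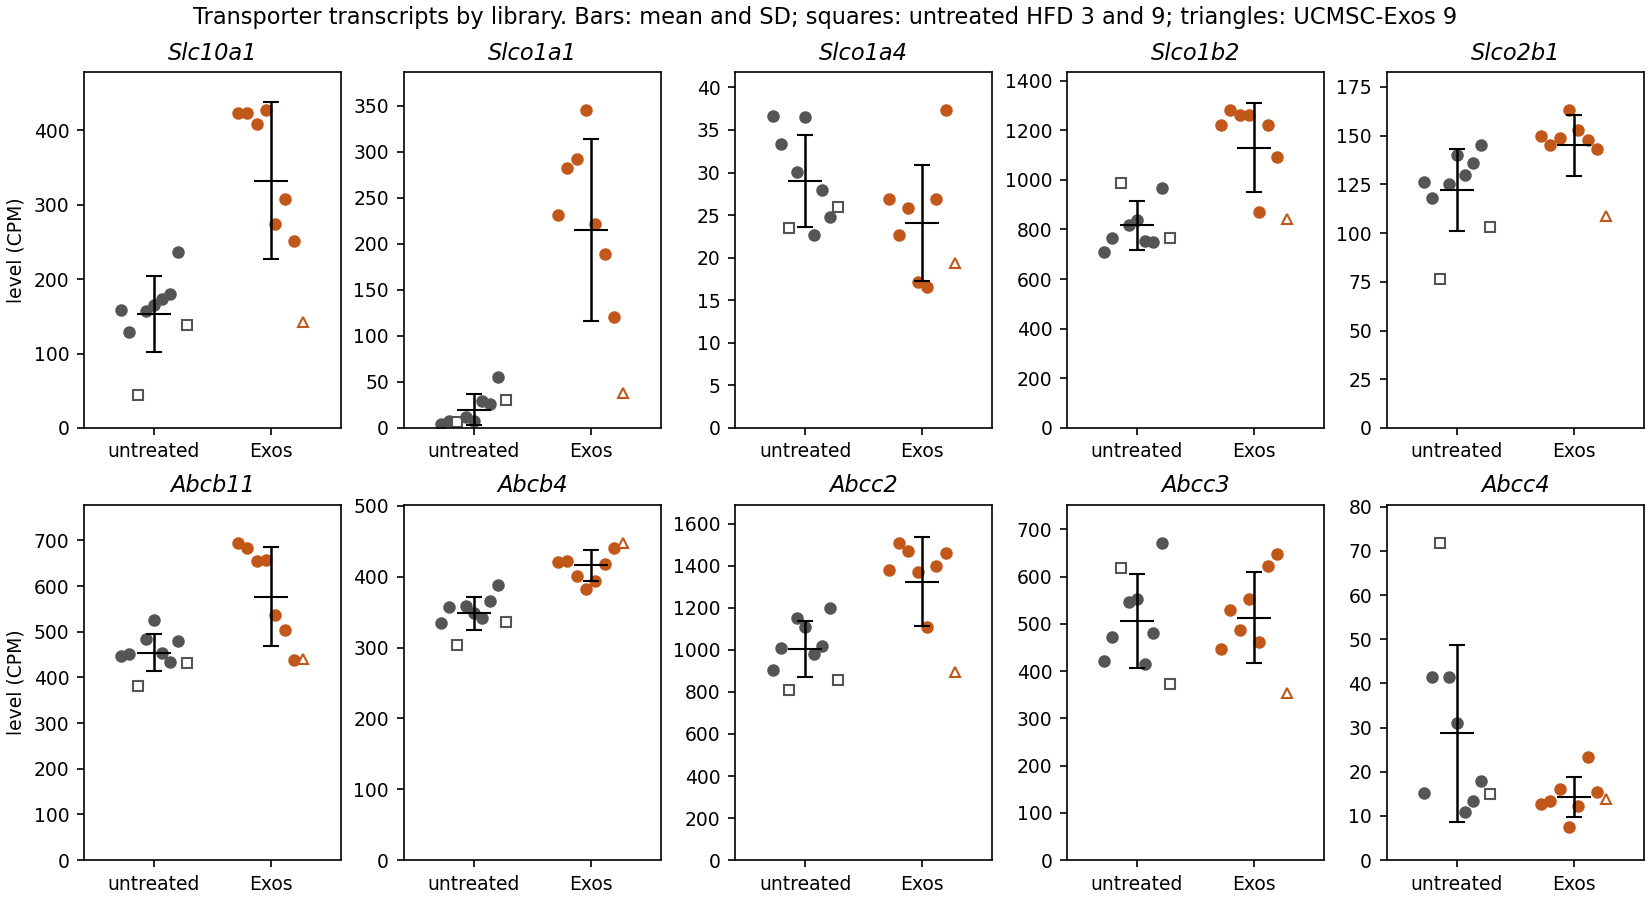
Level of each of the 10 transporter transcripts by library, in CPM on linear axes that start at 0, with a panel per gene, untreated HFD in grey on the left and UCMSC-Exos in orange on the right. Points are libraries, long bars the mean and SD, open squares untreated HFD 3 and 9, and open triangles UCMSC-Exos 9. In the Slco1a1 panel 7 of 8 treated libraries lie above the highest untreated library at 55.0 CPM, and in the Abcc4 panel untreated HFD 3 stands alone at 71.9 CPM.

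All 3 canalicular exporters rose, with log2 fold changes of 0.26 to 0.40. Abcb4 (ENSMUSG00000042476.12, chromosome 5, 8893717 to 8959231, plus strand), the phosphatidylcholine floppase, was the least variable member, with a coefficient of variation of 6.72% in untreated HFD and 5.34% in UCMSC-Exos. Lowest, median and highest levels were 304, 349 and 388 CPM and 383, 419 and 448 CPM. All treated libraries but UCMSC-Exos 5 exceeded the untreated maximum, and UCMSC-Exos 9 was the highest of all. Its mean went from 348 ± 23.4 to 416 ± 22.2 CPM, a log2 fold change of 0.26 ± 0.06 (edgeR adjusted p = 0.00869).

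Abcb11 (ENSMUSG00000027048.15, chromosome 2, 69238282 to 69342616, minus strand), the bile salt export pump, had lowest, median and highest levels of 382, 452 and 525 CPM in untreated HFD and 439, 595 and 695 CPM in UCMSC-Exos. Treated libraries 1, 2, 3 and 5 were at 654 to 695 CPM, above all untreated ones, while libraries 7, 8 and 9 were at 439 to 504 CPM, within the untreated range. Its mean went from 454 ± 39.8 to 576 ± 108 CPM, a log2 fold change of 0.34 ± 0.10 (edgeR adjusted p = 0.0284). This call depended on single libraries: without UCMSC-Exos 1, 2, 3 or 5 the edgeR adjusted p was 0.0653, 0.0675, 0.0648 and 0.0613, and without untreated HFD 3 and 9 it was 0.0571 at a log2 fold change of 0.30. Without UCMSC-Exos 9 the log2 fold change was 0.39 (edgeR adjusted p = 0.00427). Without untreated HFD 3 and 9 and UCMSC-Exos 9 it was 0.35 (edgeR adjusted p = 0.00712). With surrogate variables the log2 fold change was 0.13 (edgeR adjusted p = 0.402). Of its exons 155 bases are shared with opposite-strand models.

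Abcc2 (ENSMUSG00000025194.5, chromosome 19, 43782192 to 43840740, plus strand), the pump for glucuronide and glutathione conjugates, had lowest, median and highest levels of 808, 1009 and 1201 CPM in untreated HFD and 893, 1392 and 1505 CPM in UCMSC-Exos. UCMSC-Exos 6 and 9 lay inside the untreated range, at 1110 and 893 CPM, and the other 6 treated libraries above it. The mean went from 1003 ± 133 to 1324 ± 213.5 CPM, a log2 fold change of 0.40 ± 0.11 (edgeR adjusted p = 0.0200), which with surrogate variables was 0.13 and did not pass (edgeR adjusted p = 0.295).

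Neither exporter of the blood-facing membrane passed the test. Abcc3 (ENSMUSG00000020865.16, chromosome 11, 94343295 to 94392997, minus strand), which returns glucuronides to blood, ranged over 372, 481 and 672 CPM in untreated HFD and 354, 509 and 648 CPM in UCMSC-Exos. Its log2 fold change was 0.02 ± 0.13 (edgeR adjusted p = 0.927), with a 95% interval of 0.838-fold to 1.23-fold.

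Abcc4 (ENSMUSG00000032849.14, chromosome 14, 118482692 to 118706219, minus strand), an exporter of bile salts with glutathione and of cyclic nucleotides, was the member closest to the threshold without passing. Lowest, median and highest levels were 10.8, 18.0 and 71.9 CPM in untreated HFD and 7.47, 13.6 and 23.4 CPM in UCMSC-Exos. Untreated libraries 2, 3, 4 and 5 stood at 31.0 to 71.9 CPM, above every treated library, and the remaining 5 untreated libraries at 10.8 to 18.0 CPM, amid the treated ones. The log2 fold change was −1.0 ± 0.36 (edgeR adjusted p = 0.0560; 95% interval 0.296-fold to 0.841-fold). It was −0.70 ± 0.30 without untreated HFD 3, the highest library (edgeR adjusted p = 0.0969), and −1.11 ± 0.34 without untreated HFD 6, the lowest of the untreated ones (edgeR adjusted p = 0.0366). Without untreated HFD 7, 8 or 9 or UCMSC-Exos 7 it also passed (edgeR adjusted p = 0.0450, 0.0481, 0.0423 and 0.0484). Smaller values came with voom, at −0.64 (limma adjusted p = 0.115), and with surrogate variables, at −0.80 (edgeR adjusted p = 0.186).

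Divided by exon length, levels can be compared between genes, but only roughly. The length covers all annotated exons of a gene, not the transcripts present in these livers. In untreated HFD the order in CPM per kilobase was Slco1b2 at 166 ± 20.1, Abcc2 at 118 ± 15.6, Abcc3 at 88.8 ± 17.5, Abcb11 at 88.3 ± 7.71, Slc10a1 at 69.7 ± 23.2, Abcb4 at 37.1 ± 2.49 and Slco2b1 at 20.5 ± 3.57 (SD, n = 9). Slco1a4, Abcc4 and Slco1a1 followed at 4.53 ± 0.84, 4.5 ± 3.16 and 3.75 ± 3.19. Neighbours in this order kept their rank in 8 or 9 of the 9 libraries, except Abcc3 over Abcb11 (4 of 9), Slco1a4 over Abcc4 (6 of 9) and Abcc4 over Slco1a1 (5 of 9), which did not differ beyond their spread.

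In UCMSC-Exos the length-scaled order had Slc10a1 in the third place at 151 ± 47.9 CPM per kilobase and Slco1a1 in the seventh at 40.8 ± 18.8 (SD, n = 8). Slco1b2 stayed first at 229 ± 36.3 and Abcc2 second at 155 ± 24.9, with Abcb11 at 112 ± 21.1, Abcc3 at 90.0 ± 16.9, Abcb4 at 44.3 ± 2.36 and Slco2b1 at 24.4 ± 2.60. Slco1a4 at 3.76 ± 1.06 and Abcc4 at 2.24 ± 0.70 were last. Abcc2 exceeded Slc10a1 in 4 of 8 libraries and Abcb4 exceeded Slco1a1 in 4 of 8, so neither pair differed beyond its spread. Abcb11 over Abcc3 and Slco1a1 over Slco2b1 held in 6 of 8 libraries, and the other neighbours in 7 or 8.

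Summed by role, uptake carriers went from 264 ± 32.0 to 449 ± 99.9 CPM per kilobase, canalicular exporters from 243 ± 24.3 to 312 ± 39.3, and the exporters of the blood-facing membrane from 93.3 ± 19.3 to 92.3 ± 17.1 (SD, n = 9 and 8). Slco1a1 made up 1.35% ± 0.998 of the uptake sum in untreated HFD and 8.62% ± 3.10 in UCMSC-Exos. The share of Slco1b2 went from 63.1% ± 8.37 to 52.0% ± 6.31 although its own level rose. In the canalicular sum the mean shares were nearly alike in both groups, while their SDs were larger in UCMSC-Exos. Abcc2 was at 48.2% ± 1.82 and 49.7% ± 3.89, Abcb11 at 36.4% ± 1.55 and 35.8% ± 3.87, and Abcb4 at 15.3% ± 0.84 and 14.5% ± 2.56. These sums and shares are descriptions of transcript levels without a test.

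**Figure D3:**
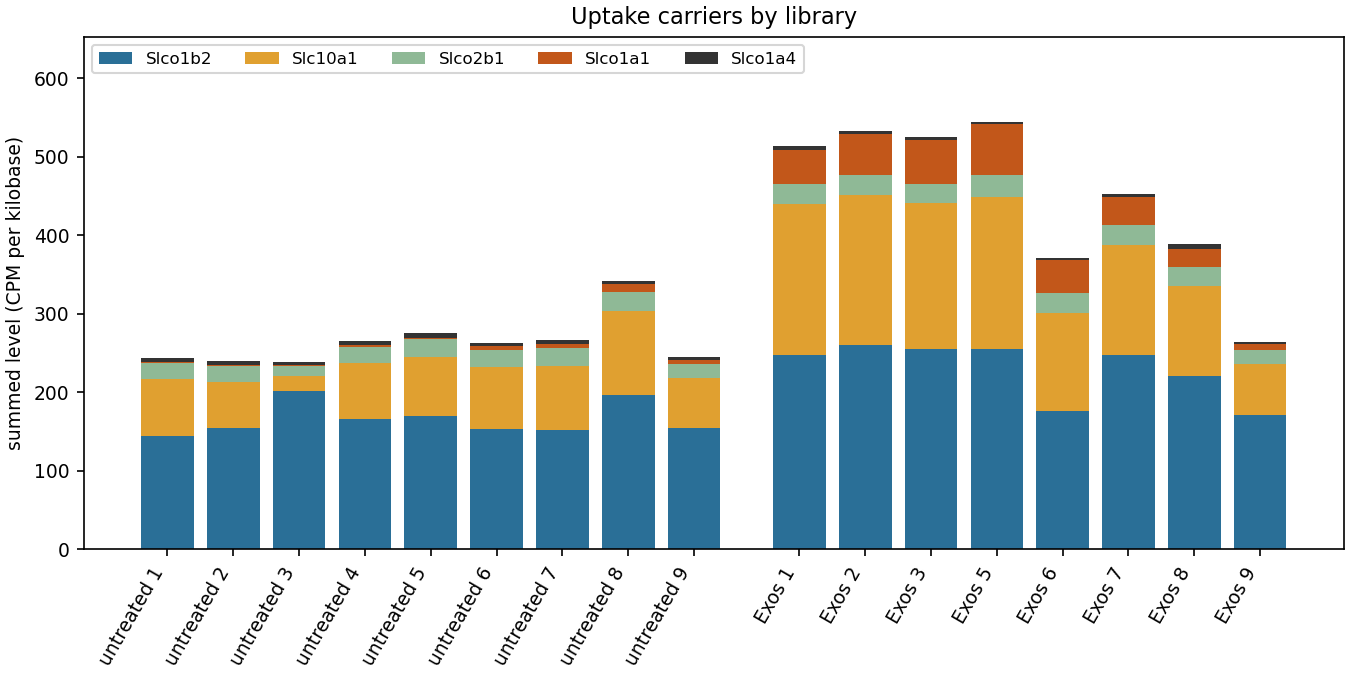
Stacked bars of the 5 uptake carriers in each library, in CPM per kilobase of exon on an axis that starts at 0, with untreated HFD libraries on the left and UCMSC-Exos libraries on the right. Slco1b2 (blue) is the largest part in every bar. Treated libraries 1, 2, 3 and 5 reach 513 to 544, and UCMSC-Exos 9 at 264 stands among the untreated libraries at 239 to 342.

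Ratios of 2 transcripts within a library do not depend on library scaling, and 3 pairs were compared by an exact permutation test over all 24310 assignments of libraries to groups, two-sided and adjusted over the 3. The log2 ratio of Slco1a1 to Slco1a4 per kilobase ran from −2.74 to 1.43 in untreated HFD (median −1.07) and from 1.25 to 4.61 in UCMSC-Exos (median 3.58). Per kilobase of exon, Slco1a4 was the higher of the pair in untreated libraries 1 to 5, and Slco1a1 in untreated libraries 6 to 9 and in every treated library. The ratio was 15.8-fold higher in UCMSC-Exos, with means of −0.73 ± 1.46 and 3.26 ± 1.13 (log2, SD) and an exact p of 0.000123 (adjusted 0.00037).

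For Slc10a1 to Abcb11, uptake against export of bile salts, the log2 ratio ran from −1.91 to 0.21 in untreated HFD (median −0.40) and from −0.41 to 0.60 in UCMSC-Exos (median 0.51). All treated libraries but UCMSC-Exos 9 lay above all untreated ones. The ratio was 1.77-fold higher (exact p = 0.00132 by permutation, adjusted 0.00132), and the log2 difference of 0.82 became 0.64 without untreated HFD 3 (exact permutation adjusted p = 0.00233).

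The log2 ratio of Abcc2 to Abcc3, export to bile against export to blood, ran from −0.20 to 0.66 in untreated HFD (median 0.50) and from 0.59 to 1.05 in UCMSC-Exos (median 0.74). Only in untreated HFD 3 was Abcc3 the higher per kilobase of exon, and 6 of 8 treated libraries exceeded the untreated maximum. The ratio was 1.29-fold higher (exact permutation p = 0.000658, adjusted 0.000987), a log2 difference of 0.37 that was 0.29 without untreated HFD 3.

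**Figure D4:**
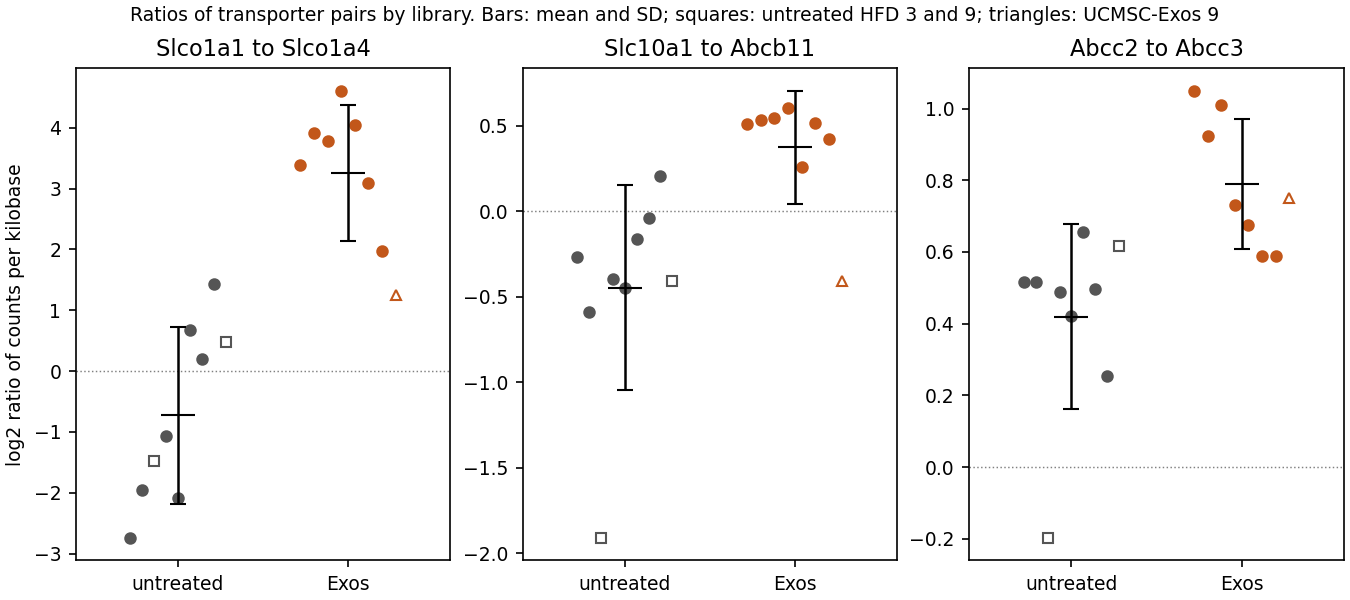
Log2 ratio of counts per kilobase for 3 transporter pairs by library, untreated HFD in grey and UCMSC-Exos in orange, with the mean and SD as bars and a dotted line where the pair is equal. Squares are untreated HFD 3 and 9 and triangles UCMSC-Exos 9. In the first panel every treated library lies above the dotted line, from 1.25 to 4.61, and in the other panels untreated HFD 3 is the lowest point at −1.91 and −0.20.

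Libraries that stood apart did so in several members. UCMSC-Exos 9 had the lowest treated level of 6 members (Slc10a1, Slco1a1, Slco1b2, Slco2b1, Abcc2 and Abcc3) and the highest of Abcb4, and lay within the untreated range for 7 of the 10. Untreated HFD 3 had the lowest untreated level of 5 members (Slc10a1, Slco2b1, Abcb11, Abcb4 and Abcc2) and the highest of Slco1b2 and Abcc4. Untreated HFD 9 was lowest for Abcc3 alone.

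Within groups, after each group's mean was subtracted from log2 CPM, some members varied together across the 17 libraries. Slc10a1 varied most with Slco2b1 (Pearson r = 0.91), Abcc2 (0.746), Abcb11 (0.739) and Slco1a1 (0.659). Its r with Slco1b2 was 0.228 and with Abcc4 −0.569, and that of Slco1a1 with Slco1a4 was −0.354. Over the 14 libraries left without untreated HFD 3 and 9 and UCMSC-Exos 9, the order was another: r of Slc10a1 was highest with Abcb11 (0.733) and Slco1b2 (0.71), followed by Slco1a1 (0.695), Slco2b1 (0.61) and Abcc2 (0.444). Its r with Abcc4 was then −0.448, and that of Slco1a1 with Slco1a4 −0.684. The libraries share tissue make-up and scaling, and the values are descriptions without a test.

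Among 9042 genes with a mean of at least 10 CPM, the genes most like each of 5 members by the same within-group Pearson r over 17 libraries were also found. For Slco1a1 they were the complement component C6 (r = 0.981), the pseudogene Serpina4-ps1 (0.935) and the steroid dehydrogenase Hsd3b5 (0.925). For Slc10a1 they were the amidase Pglyrp2 (0.967), Slc17a2 (0.957) and Sidt2 (0.957). Abcc3 was most like Acad10 (0.95), Entpd5 (0.923) and the carboxylesterase Ces1g (0.913), and Abcc4 most like the carbonyl reductase Cbr3 (0.898), the small GTPase Rap1b (0.868) and Rasgef1b (0.834). The closest genes to Slco1a4 were less alike, with glycerol kinase Gk at 0.816, Ildr2 at 0.809 and Fgd6 at 0.806. All these r values include the libraries that stood apart and were not computed without them. Leaving those libraries out changed the r values between members given above. The genes were picked for the highest r among 9042, and the values are descriptions without a test. Cbr3 fell, with a log2 fold change of −1.39 ± 0.41 (edgeR adjusted p = 0.0258), while Abcc4 did not pass. Group changes of the other genes in this paragraph's r lists are not given here. An r within groups does not describe a change between groups.

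In the Slco1 cluster, Slco1a5, Slco1a6 and Slco1c1 had at most 3, 16 and 12 reads in any library and were not tested, which left the 3 members as the measured genes of that cluster. Beside Abcb4 on chromosome 5, the drug pump Abcb1a fell from 19.7 ± 4.87 to 10.5 ± 6.78 CPM (log2 fold change −0.90, edgeR adjusted p = 0.0264), while Abcb1b was at 0.23 (edgeR adjusted p = 0.632). Close paralogs such as this pair, the Slco1a genes and the Slc22a genes below lose reads that map to more than a single copy, which leaves their levels less certain.

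Of 8 tested other Slc10 and Slco genes, 3 rose and 1 fell, with a median log2 fold change of 0.22 against −0.02 over all genes. Slc10a2, the sodium-dependent carrier of ileum and bile duct cells, rose by 0.68 ± 0.18 (edgeR adjusted p = 0.0150) and the related Slc10a5 by 0.59 ± 0.12 (edgeR adjusted p = 0.00267), while Slco3a1 changed by −0.92 ± 0.21 (edgeR adjusted p = 0.00605). Slco6b1, Slco6c1 and Slco6d1 had no reads. Of 18 other ABC transporters of the B, C and G classes, 6 rose and 4 fell (median 0.17). Abcg2, which exports sulfates and drugs into bile, changed by 0.68 ± 0.11, the sterol exporter subunit Abcg8 by 0.83 ± 0.21, and Abcg1, which hands cholesterol to HDL, by −0.48 ± 0.11 (edgeR adjusted p = 0.000424, 0.0111 and 0.0061).

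Among 15 other hepatic solute carriers for organic ions and bile acids, 7 rose and 1 fell (median 0.33). Slc22a28 and Slc22a30, of the organic anion carrier family, had log2 fold changes of 2.42 ± 0.29 and 1.15 ± 0.17, and Slc22a27 fell by 1.33 (edgeR adjusted p = 3.39e-05, 0.000189 and 0.000829). Levels of Slc22a28 and Slc22a27 were low, with means of 1.63 and 9.84 CPM in untreated HFD and 8.72 and 3.9 CPM in UCMSC-Exos. Genes that flip lipids in the canalicular membrane or anchor its pumps were mixed, with 3 of 17 higher and 2 lower (median 0.01). Tmem30a, the partner subunit of the flippase Atp8b1, rose by 0.35 ± 0.09. Radixin (Rdx), which tethers Abcc2 to actin at the canaliculus, rose by 0.27 ± 0.07, and moesin (Msn), its relative in non-hepatocyte liver cells, changed by −0.45 ± 0.12 (edgeR adjusted p = 0.00957, 0.00967 and 0.0128).

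Of 24 factors known to act on transporter genes, 8 rose and none fell (median 0.22). Hnf4a, a nuclear receptor of hepatocyte identity, rose by 0.67 ± 0.13, the pioneer factor Foxa1 by 0.50 ± 0.12 and the xenobiotic receptor Ahr by 0.59 ± 0.11 (edgeR adjusted p = 0.0023, 0.00707 and 0.00113). In the sensing list, which shares its first 2 genes with the factor list, the bile acid receptor Nr1h4 (FXR) and its target Nr0b2 (SHP) rose by 0.31 ± 0.10 and 0.54 ± 0.16, and S1pr2, a receptor of conjugated bile acids, changed by −0.71 ± 0.17 (edgeR adjusted p = 0.0438, 0.0236 and 0.00785). That made 2 higher and 1 lower of 5 tested sensing genes (median 0.31).

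Of 15 tested genes of bile acid synthesis and conjugation, 7 rose and none fell (median 0.37). Cyp7b1 of the oxysterol route, known for higher levels in male liver, rose by 3.18 ± 0.33, Cyp2c70, which makes muricholic acids, by 0.78 ± 0.20, and the aldo-keto reductase Akr1c6 by 0.61 ± 0.11 (edgeR adjusted p = 1.34e-05, 0.0129 and 0.00138). Set against the untreated mean log2 CPM, this list averaged −0.42 in UCMSC-Exos 9 and 0.75 over the rest of the treated libraries. For the 10 members these offsets were −0.03 and 0.63, and for the hepatocyte markers −0.22 and 0.68.

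Among the hepatocyte markers, Pck1 rose by 0.99 ± 0.15, Ahsg by 0.91 ± 0.15 and Serpina1a by 0.87 ± 0.15 (edgeR adjusted p = 0.000214, 0.000631 and 0.001). Of 15 cholangiocyte markers 2 were lower and none higher (median −0.996), among them the epithelial factor Elf3 at −1.21 ± 0.38 (edgeR adjusted p = 0.0327); the markers' sum ran from 150 to 601 CPM in untreated HFD and 73.6 to 684 CPM in UCMSC-Exos. Macrophage markers had 2 higher and 3 lower of 12, with C1qa and C1qb at −0.52 ± 0.10 and −0.42 ± 0.09 and Timd4 at 2.39 ± 0.58 (edgeR adjusted p = 0.00188, 0.00529 and 0.0108). Endothelial and stellate markers had 1 higher (Stab2, 0.24 ± 0.08) and 1 lower (Dcn, −0.68 ± 0.21) of 12 (edgeR adjusted p = 0.0428 and 0.0323), and their sum was 1080 to 2170 CPM in untreated HFD, 746 to 1070 CPM in UCMSC-Exos other than 9, and 2140 CPM in UCMSC-Exos 9. None of 13 mitochondrially encoded genes passed (median 0.51); mt-Nd3 and mt-Atp8 were at 0.62 ± 0.23 and 0.85 ± 0.32 (edgeR adjusted p = 0.0679 and 0.0660). Of 18 markers of other tissues 4 were tested and none passed, with Cela1 at −2.91 ± 1.06 and Vil1 at −1.46 ± 0.72 (edgeR adjusted p = 0.0629 and 0.152). Cela1, a pancreatic elastase, was at 881 CPM in untreated HFD 3 and at 8.17 to 17.8 CPM in the other 16 libraries. The part of the marker shifts in the changes of the transporters was not tested.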

How the data were processed

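The values analysed are whole-number read counts of 17 liver libraries, in a table the authors deposited. The submitters' processing notes name Subread 2.0.2 and featureCounts, the trimmer fastp 1.3.3 and the aligner HISAT2 2.2.1, on mm10. The deposited counts were taken over GENCODE vM25 exons by featureCounts 2.1.1, per the file headers, with paired reads, without strand and without multi-mapping reads, and both mates of a pair are counted. The 2 sources thus differ in version.

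Of the 55401 genes, 213 whose symbol is not unique keep their gene ID as name. Library names in the labels tied the columns to 9 untreated HFD and 8 UCMSC-Exos samples, and the 1 other per-sample column was left out. Counts were fitted in R 4.3.3 with edgeR 4.0.16: filterByExpr with a minimum count of 10, TMM scaling, a robust quasi-likelihood F test, two-sided, Benjamini-Hochberg over 16238 genes, threshold 0.05. CPM uses the effective library size, and log2 CPM a prior count of 2. Intervals are 95%. Ratios used counts per kilobase with 0.5 added to each count. The steps were tested on simulated counts, with 4 false calls among 130. Of simulated log2 changes of 0.5, 29.9% were recovered, of those of 1, 74.6%, and of those of 2, 84.8%. A member that did not pass may thus have changed by a small amount.

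The members, the gene lists and the tests were chosen with earlier results of these data known. Named genes are all members, up to 3 passing genes of smallest p per list (2 where none passed), and the 3 genes most like each of 5 members; neighbours on the chromosome were added. Of the named genes, 1 is not reported here. Other settings tried were scaling by RLE or the upper quartile, a fit of all genes with reads, a filter of 1 CPM in 8 libraries, a replicate block, 3 surrogate variables (sva 3.50.0; from CPM and, added after seeing the data, from log2 CPM), DESeq2 1.42.0, limma 3.58.1 voom with quality weights, 2 added to each count in ratios, and leaving out each library or the 3 libraries that stood apart. Closest of all library pairs within a group, UCMSC-Exos 2 and 3 differed by 3.90 times the sampling noise of independent reads. Both mates are counted, so reads are not independent and that noise is set too low. The value cannot tell whether 2 libraries come from the same animal, and none was merged. No label gives a cage, date or sequencing batch. Promoter windows are from RefSeq, GRCm38.p6.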

Additional observations from a re-analysis of the deposited data

Results flagged for a closer look

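In 6 of 26 groups of values (each member and each ratio, in each group of libraries) a single library stood far from the others by Dixon's criterion. Its rate of about 1 in 20 by chance holds for normally distributed values. Levels were taken in CPM, not log2, and the ratios reuse the members. The 6 of 26 can therefore not be compared with that rate. For levels these were Slco1a1 in untreated HFD 8 at 55.0 CPM, the highest untreated value, Slco2b1 in UCMSC-Exos 9 at 109 CPM, the lowest treated value, and Abcc4 in untreated HFD 3 at 71.9 CPM, the highest untreated value. For log2 ratios they were Slc10a1 to Abcb11 in untreated HFD 3 at −1.91 and in UCMSC-Exos 9 at −0.41, and Abcc2 to Abcc3 in untreated HFD 3 at −0.20, each the lowest of its group. Of the 6 values, 3 come from untreated HFD 3 and 2 from UCMSC-Exos 9, the libraries that also stood apart in their marker sums or on the first principal component.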

How the results depend on the processing

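Scaling by RLE or by the upper quartile left every member on its side of the threshold and with its direction. With 3 surrogate variables Abcb11 was at 0.13 and Abcc2 at 0.13 and neither passed, Abcc3 was at −0.17, and 694 genes were higher and 855 lower, against 1580 and 1694 in the reported fit. With these variables estimated on log2 CPM, a setting added after seeing the data, Slco1a1 (2.2), Slc10a1 (0.41), Slco1b2 (0.30), Abcb11 (0.10) and Abcc2 (0.0956) did not pass, Slco2b1 was at −0.0309 and Abcc3 at −0.22, 1 member (Abcb4) was higher, and 421 genes were higher and 545 lower. Abcb11 was at 0.30 without untreated HFD 3 and 9 and did not pass, and at 0.35 and passed without these and UCMSC-Exos 9. Abcc4 passed with at least 1 CPM in 8 libraries (−1.0) and with DESeq2 (−0.997), making 1 member lower in each. Slco2b1 passed with voom (0.22) and without untreated HFD 3 and 9 and UCMSC-Exos 9 (0.19). Genes called higher and lower were 1217 and 1062 with no filter, 3595 and 4137 with voom, and 3148 and 3568 without the 3 libraries. The causes were not tested. Leaving out each library in turn gave log2 fold changes of 0.30 to 0.39 for Abcb11, −0.034 to 0.0828 for Abcc3, −1.14 to −0.70 for Abcc4 and 0.18 to 0.30 for Slco2b1, with 5 to 7 members higher, 0 to 1 lower, 1078 to 2456 genes higher (without UCMSC-Exos 3 and 9, respectively) and 927 to 3367 lower (the same libraries). Abcc3 was below 0 without untreated HFD 1 (−0.01), 6 (−0.01) or 9 (−0.03) or UCMSC-Exos 7 (−0.02) or 8 (−0.034), and passed in no fit. All 3 ratios passed in the alternatives run for them: 2 added to each count, no untreated HFD 3 and 9, the replicate block, and each library left out.

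No pairing by replicate number was seen: residuals of same-numbered libraries correlated at −0.171 to 0.238, and none matched its own number best. The residuals include the libraries that stood apart. This check cannot tell whether the numbers mark a shared cage or processing order. With the replicate block Abcb11 was at 0.34 (edgeR adjusted p = 0.0519), Abcc4 at −0.67 (edgeR adjusted p = 0.203), 5 members passed as higher, and the ratio differences were 3.94, 0.83 and 0.38 (exact sign-flip permutation p = 0.00781, the smallest that 8 pairs allow). The counts of genes higher and lower were 1321 and 1708. At this depth the fewest reads of a member in a library were 159.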
